A study of Mus musculus with 6 samples.

Results

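The mouse genes for the subunits, activators, inhibitor and assembly chaperones of the proteasome were examined for binding sites of Eomes, a T-box factor that natural killer (NK) cells need to mature. Members were the gene symbols made of Psm, a letter from a to g and a number, with at most 1 letter after it. The pattern fits 49 of the 21896 protein-coding genes that RefSeq lists. Of these, 44 had at least 1 assigned peak in the deposited lists. The other 5 genes, Psma2, Psmb5, Psmb11, Psmd10 and Psme2b, were named in no row of these lists.

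Eomes was immunoprecipitated (IP) from chromatin of NK cells purified from pooled spleens of wild-type C57BL/6 mice, 8 to 12 weeks old. Before harvest the cells spent 4 days with IL-15, an NK cell survival cytokine, at 100 ng/mL. Each of 3 separate experiments gave 1 Eomes IP library and 1 input library, made from chromatin DNA without immunoprecipitation, so all 6 libraries came from untreated wild-type cells in IL-15. Each IP list had been called against the input of its own experiment, and the labels give no condition other than IP and input. Pooled spleens carry no information on single animals, and the 3 experiments are the replicates.

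The 3 lists held 37456, 33841 and 46329 intervals for experiments 1, 2 and 3. Intervals came with a whole-number pileup, taken to be the number of IP fragments over the summit, and a fold enrichment of IP over background, which is the authors' value throughout. The lowest pileups were 8, 7 and 9 and the median pileups 12, 11 and 14, so weaker sites were not detectable at these depths. The median folds over all intervals were 4.1, 4.67 and 4.08, highest in experiment 2. The labels and headers used here give no read depth for any library. The NK cell genes Ncr1, Klrb1c and Prf1 each had a region found in all 3 lists. So did 29.8% of all protein-coding genes, so these regions cannot by themselves check the cell label. Their leading regions had mean folds of 8.48 ± 2.37, 11.8 ± 2.58 and 12.8 ± 0.545 (SD, n = 3 experiments each).

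The proteasome is the main protease of the cytosol and nucleus and degrades proteins tagged with ubiquitin. Its barrel-shaped core has outer rings of alpha subunits (Psma genes) and inner rings of beta subunits (Psmb genes), and a regulatory cap of ATPases (Psmc genes) and non-ATPase subunits (Psmd genes) recognises, unfolds and feeds in the substrate. In immune cells and under interferon, the catalytic subunits Psmb5, Psmb6 and Psmb7 can be replaced by Psmb8, Psmb9 and Psmb10 to form the immunoproteasome, which is known for producing peptides for display on class I molecules.

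Promoter sequences are shown for the 3 immunoproteasome genes, for the constitutive counterparts Psmb5 and Psmb6, for the strong promoter regions of the subunits Psmd4 and Psmd12 and of the assembly chaperone Psmg1, and for Psmd11, which has a T-box match in its window and a reproducible region assigned to it. Each is the RefSeq window from 250 bases before to 50 bases after a gene start (assembly GRCm38.p6), read 5′ to 3′ in the sense of the gene. Capitals mark matches, on either strand, to 4 short motifs. These are a T-box core (GGTGTGA), an ETS-type motif (CCGGAAG), an antioxidant-type motif (TGANNNNGC) and an interferon-type motif (GAAANNGAA). Matches of different motifs were counted separately.
Psmb8 (chr17:34197945-34198244, plus strand): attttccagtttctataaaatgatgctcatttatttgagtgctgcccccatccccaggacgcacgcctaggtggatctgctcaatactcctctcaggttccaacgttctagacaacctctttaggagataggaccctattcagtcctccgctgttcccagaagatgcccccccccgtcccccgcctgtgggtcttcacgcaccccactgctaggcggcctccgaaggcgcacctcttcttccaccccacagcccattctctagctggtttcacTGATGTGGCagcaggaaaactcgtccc
Psmb9 (chr17:34187281-34187580, minus strand): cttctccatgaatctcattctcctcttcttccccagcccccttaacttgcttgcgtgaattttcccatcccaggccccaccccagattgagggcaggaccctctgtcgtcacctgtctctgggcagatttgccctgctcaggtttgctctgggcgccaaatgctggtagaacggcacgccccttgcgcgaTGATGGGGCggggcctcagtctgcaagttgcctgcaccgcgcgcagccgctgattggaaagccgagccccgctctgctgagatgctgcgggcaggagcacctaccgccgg
Psmb10 (chr8:105938343-105938642, minus strand): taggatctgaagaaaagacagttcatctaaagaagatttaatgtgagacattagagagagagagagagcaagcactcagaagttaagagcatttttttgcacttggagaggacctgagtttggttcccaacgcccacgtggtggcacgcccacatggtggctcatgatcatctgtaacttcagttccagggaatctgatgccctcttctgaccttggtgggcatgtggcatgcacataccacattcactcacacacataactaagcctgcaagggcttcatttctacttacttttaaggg
Psmb5 (chr14:54617946-54618245, minus strand): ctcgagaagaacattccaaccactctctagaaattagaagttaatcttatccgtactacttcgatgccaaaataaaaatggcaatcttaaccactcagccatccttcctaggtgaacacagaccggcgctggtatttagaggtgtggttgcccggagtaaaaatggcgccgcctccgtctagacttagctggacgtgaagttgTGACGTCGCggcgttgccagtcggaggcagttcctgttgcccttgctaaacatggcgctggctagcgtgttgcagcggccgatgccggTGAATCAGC
Psmb6 (chr11:70525107-70525406, plus strand): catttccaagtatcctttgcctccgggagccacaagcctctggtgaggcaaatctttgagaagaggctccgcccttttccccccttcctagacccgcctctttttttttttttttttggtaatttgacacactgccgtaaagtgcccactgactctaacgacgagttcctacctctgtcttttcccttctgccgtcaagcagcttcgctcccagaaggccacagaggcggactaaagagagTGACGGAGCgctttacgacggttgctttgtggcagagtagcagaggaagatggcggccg
Psmd4 (chr3:95042565-95042864, minus strand): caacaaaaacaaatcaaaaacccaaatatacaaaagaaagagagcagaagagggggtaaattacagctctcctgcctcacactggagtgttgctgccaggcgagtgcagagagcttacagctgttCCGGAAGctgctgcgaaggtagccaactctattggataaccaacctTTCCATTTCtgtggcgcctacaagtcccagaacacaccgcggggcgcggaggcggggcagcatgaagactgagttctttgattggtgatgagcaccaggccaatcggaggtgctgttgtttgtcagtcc
Psmd12 (chr11:107479278-107479577, plus strand): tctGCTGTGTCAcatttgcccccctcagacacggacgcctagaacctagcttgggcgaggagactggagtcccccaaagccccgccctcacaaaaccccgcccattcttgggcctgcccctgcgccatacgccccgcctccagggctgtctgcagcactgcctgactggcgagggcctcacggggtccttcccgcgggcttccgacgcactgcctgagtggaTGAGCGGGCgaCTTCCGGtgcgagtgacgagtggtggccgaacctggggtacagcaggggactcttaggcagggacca
Psmg1 (chr16:95990911-95991210, minus strand): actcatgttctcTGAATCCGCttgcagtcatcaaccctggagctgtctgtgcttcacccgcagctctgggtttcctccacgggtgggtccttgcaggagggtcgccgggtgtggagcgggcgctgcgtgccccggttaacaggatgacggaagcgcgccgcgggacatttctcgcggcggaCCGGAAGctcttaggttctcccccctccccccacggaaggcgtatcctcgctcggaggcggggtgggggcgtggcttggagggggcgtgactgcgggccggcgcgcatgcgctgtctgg
Psmd11 (chr11:80428365-80428664, plus strand): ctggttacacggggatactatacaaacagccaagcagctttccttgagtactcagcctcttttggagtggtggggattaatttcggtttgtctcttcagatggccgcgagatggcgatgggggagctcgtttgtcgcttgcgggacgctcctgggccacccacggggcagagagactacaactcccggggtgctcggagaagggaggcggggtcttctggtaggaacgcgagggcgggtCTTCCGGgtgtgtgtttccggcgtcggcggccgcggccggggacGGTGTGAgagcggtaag

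Sequence matches to the T-box core were rare in these windows. Windows were available for 41 of the 49 genes, and 2 of the 41 (4.88%), Psmd11 and Psmd13, held GGTGTGA, against 4.32% of 17491 protein-coding genes. None of the 3 immunoproteasome windows held the T-box, ETS-type or interferon-type motif. The antioxidant-type motif was in the windows of Psmb8 and Psmb9 and of 23 of the 41 genes (56.1%), against 45.5% of all genes with a window. The ETS-type motif was in 14 of the 41 (34.1%), against 12.9% of all genes, and the interferon-type motif in 7 (17.1%), against 9.43%. A match is a stretch of letters and not a shown site, and these shares were not tested.

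Most proteasome genes carried an Eomes region found in more than 1 experiment, and in nearly all of them it lay at the promoter. Intervals that overlapped by at least 1 bp were merged, and a region seen in at least 2 of the 3 lists was called reproducible. A reproducible region was assigned to 38 of the 49 genes (77.6%), against 44.8% of all protein-coding genes. Reproducible promoter regions, within 3000 bp of an annotated transcript start, were found at 36 (73.5%), against 38.4% of all genes. Regions present in all 3 lists were found at 23 (46.9%), against 29.8% of all genes. Outside promoters the share was close to the background, with 9 genes (18.4%) against 15.1%.

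The counts per experiment were also above the background. Experiments 1, 2 and 3 gave an assigned peak to 39, 33 and 39 of the 49 genes, against 54.1%, 54% and 60.1% of all protein-coding genes. Among genes with any assigned peak, 38 of 44 proteasome genes (86.4%) had a reproducible region, against 63%. A reproducible region covered a RefSeq start of 33 proteasome genes (67.3%), against 32.1% of all genes with a known start. Taking any region within 3000 bp of a RefSeq start, whichever gene it was assigned to, gave 36 proteasome genes (73.5%), against 43.1%. Genes are not replicates of a condition, so these shares carry no test.

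Genes of other large complexes had shares of the same order. Genes of the cytosolic ribosome, another large complex made in every cell, had a reproducible region in 63 of 84 cases (75%), and genes of the mitochondrial ribosome in 55 of 78 (70.5%). Reproducible promoter regions were found at 58 (69%) of the cytosolic and 53 (67.9%) of the mitochondrial ribosomal protein genes. As a measure of strength, each gene was given the mean rank of its leading reproducible region within the lists, by −log10 q-value, from 0 for a gene with none to 100 for the strongest peak. The median was 49.8 for the proteasome genes, 54.0 for cytosolic and 54.4 for mitochondrial ribosomal protein genes, and 0 for all protein-coding genes. Only 44.8% of all protein-coding genes had a reproducible region, so their median of 0 restates that count and does not measure strength. The upper quartiles were 65.5 for the proteasome genes and 58.5 for all protein-coding genes. They were higher, at 77.8 and 82.8, for cytosolic and mitochondrial ribosomal protein genes. These quartiles also include the genes scored 0, so they too depend on that count.

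Experiment 3, which had the longest list, had a part in many of the reproducible regions. Without experiment 3, a reproducible region remained at 21 of the 38 genes, which is 42.9% of the 49, against 31% of all protein-coding genes. Leaving out experiment 1 kept 30 (61.2%, against 37.4%) and leaving out experiment 2 kept 33 (67.3%, against 36%). At Psmc6 and Psme3 the peaks of experiments 1 and 2 did not touch each other and were joined by the peak of experiment 3. At Psmg2 the experiment 2 peak was assigned to the divergent neighbour Cep76 and belongs to the Psmg2 region only through the experiment 3 peak. When only peaks with a −log10 q-value of at least 5 were kept, 18 proteasome genes (36.7%) had a reproducible region, against 25.6% of all genes.

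**Figure D1:**
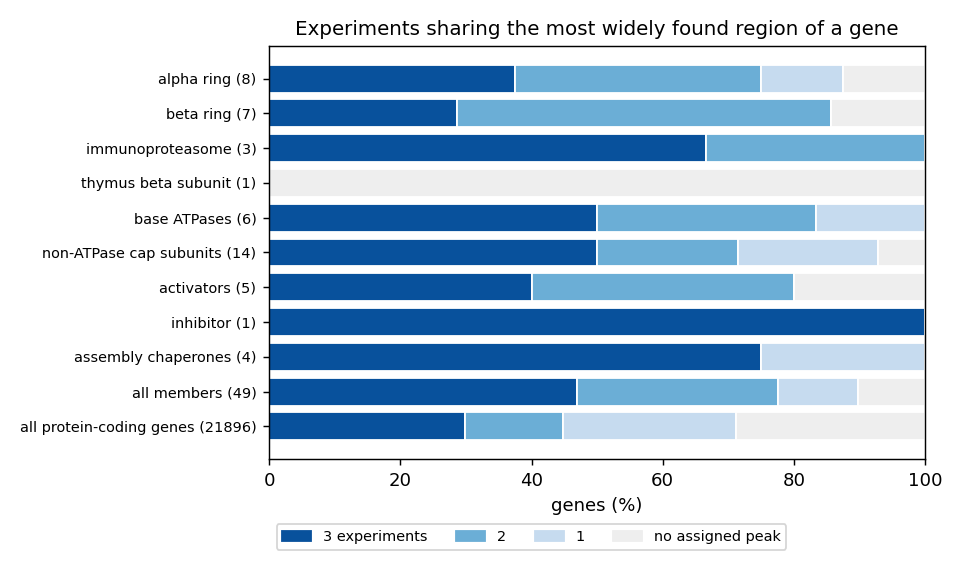
Share of genes (%) by the number of experiments that share the gene's most widely found region, for each role group (number of genes in brackets), all 49 members and all protein-coding genes. The darkest part, regions in 3 experiments, covers 46.9% of the members and 29.8% of all genes, and the palest part, no assigned peak, covers 10.2% of the members and 28.9% of all genes.

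The 44 genes held 110 regions, of which 28 were in 3 lists, 28 in 2 lists and 54 in 1 list. Of the 56 reproducible regions, 44 (78.6%) were annotated as promoter, against 59.1% of all reproducible regions. Within these 44, 39 were in the class up to 1 kb from an annotated start, 2 in the class of 1 to 2 kb and 3 in the class of 2 to 3 kb. The other 12 regions were classed as 7 distal intergenic and 5 intronic ones, and the intronic class need not refer to an intron of the member. Most genes, 26 of 38, had 1 reproducible region, 7 had 2, 4 had 3, and Psma1 had 4.

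Promoter regions sat close to the start. In the 36 genes with a reproducible promoter region, the summit of the leading one lay at a median of −29 bp from the nearest RefSeq start (quartiles −86.3 and 80.5 bp). It was within 250 bp of the start in 28 genes (77.8%), against 62.1% of 8383 protein-coding genes with such a region and a known start. The leading promoter region covered the start in 30 of the 36 genes (83.3%), against 66.7%. Its median fold was 4.76 in the proteasome genes and 5.10 in all protein-coding genes.

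**Figure D2:**
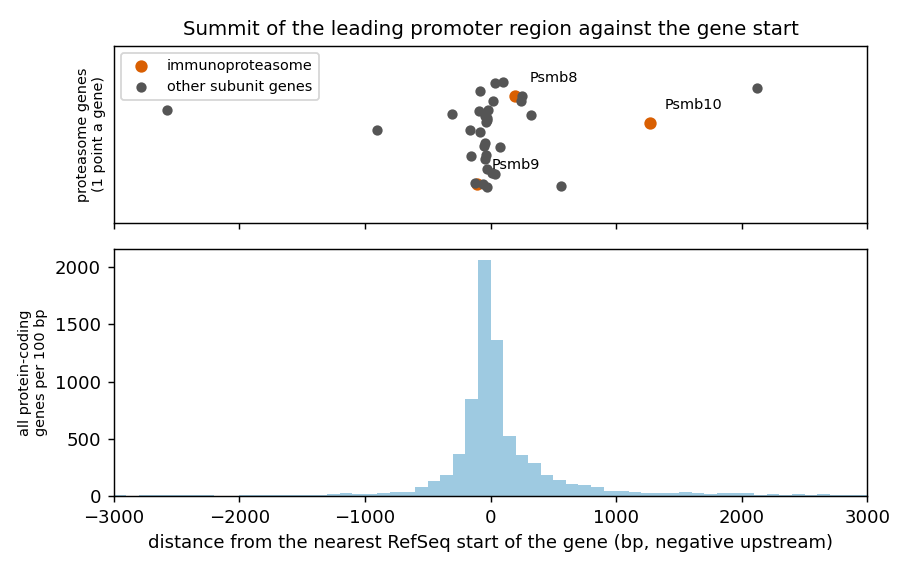
Distance in bp from the nearest RefSeq start to the summit of the leading reproducible promoter region, negative upstream. The top panel has 1 point per proteasome gene, spread vertically only for legibility, and the bottom panel counts all protein-coding genes per 100 bp. Most members crowd around the start, Psmb10 lies 1270 bp downstream, and Psmd5 (15492 bp) lies outside the axis, as do 688 of all protein-coding genes.

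The alpha ring forms the outer rings of the core and gates the entry pore. A reproducible region was assigned to 6 of its 8 genes (75%, against 44.8% of all protein-coding genes). It was in all 3 lists for Psma1, Psma6 and Psma7 (37.5%, against 29.8%). Psma1 had folds of 4.81, 9.83 and 7.20 in experiments 1, 2 and 3 at chr7:114275855-114276400, with pileups of 18, 27 and 44. This region covered the start, and experiment 2 gave the highest fold, as it did in the median over all intervals. Psma6 had folds of 8.38, 8.50 and 4.47 (pileups 28, 21 and 23) at its start at chr12:55398486-55399252, with experiment 3 the lowest of the 3. Psma7 was lower and even, with folds of 4.38, 4.31 and 4.49 and pileups of 12, 9 and 14.

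Among the other alpha genes, Psma5 and Psma8, a subunit known from male germ cells, each had promoter regions in experiments 1 and 3. Their folds were 3.03 and 5.56 at Psma5 and 3.91 and 3.90 at Psma8. Psma3 had a reproducible region only in the intergenic class, about as low, with folds of 3.76 and 3.11 in experiments 1 and 3. That region, chr12:70968209-70968715, lay just upstream of the RefSeq span of Psma3, chr12:70969283-70995877. The deposited distance of −5934 bp runs to a start further inside that span. Psma3 also had a promoter peak in experiment 3 alone, with a fold of 5.69. Psma1 also had 3 reproducible regions outside its promoter, of which the one at chr7:114291514-114291943 was in all 3 lists with folds of 4.92, 3.25 and 5.86. Psma6 had a second region in all 3 lists, annotated as distal intergenic, with folds of 5.02, 5.02 and 4.91. Psma4 had a promoter peak in experiment 1 alone, with a fold of 4.39 and a pileup of 15.

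The constitutive beta ring holds the catalytic sites in Psmb5, Psmb6 and Psmb7, beside the structural subunits Psmb1, Psmb2, Psmb3 and Psmb4. Promoter regions were reproducible in 6 of the 7 genes (85.7%, against 38.4% of all protein-coding genes). They were in all 3 lists for Psmb2 and Psmb7, a share (28.6%) close to the 29.8% of all genes with a region in all 3 lists. Psmb7, the trypsin-like subunit, had folds of 5.32, 10.04 and 4.25 with pileups of 20, 23 and 33 at chr2:38643677-38644117. Experiment 2 again had the highest fold, and experiment 3 the highest pileup. Psmb2 had folds of 2.87, 7.34 and 4.63 and pileups of 16, 18 and 32.

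Psmb6, the caspase-like subunit, had folds of 2.84 and 5.60 and pileups of 13 and 12 in experiments 1 and 2 at chr11:70525291-70525504, and no peak in experiment 3. The chymotrypsin-like subunit Psmb5 had no row in any list, and no region of any gene lay within 3000 bp of its start. Psmb1, Psmb3 and Psmb4 each had reproducible promoter regions in 2 lists, always including experiment 3, with mean folds between 3.61 and 4.62. In the leading Psmb4 region the summit lay 2121 bp from the RefSeq start while the deposited distance was 0 in experiment 1. For that peak the deposited row names a short transcript on the minus strand, chr3:94884322-94884843, and the distance runs from its start. Psmb11, the beta subunit known from the thymic cortex, had no row in the lists used here.

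All 3 immunoproteasome genes had a reproducible promoter region, as did 33 of the 46 other members (71.7%) and 38.4% of all protein-coding genes. Psmb8, which takes the place of Psmb5, had folds of 4.05, 3.68 and 4.70 and pileups of 15, 10 and 16 at chr17:34198180-34198512. This region overlaps the end of the Psmb8 window printed above, and its summit lay 197 bp downstream of the RefSeq start. The 3 experiments gave similar values there, with a mean of 4.14 ± 0.514 (SD, n = 3).

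Of the immunoproteasome genes, Psmb8 had the most reproducible promoter regions, 3 in all. A second region, at chr17:34197373-34197635, had folds of 4.08 and 3.92 in experiments 1 and 3, and one 2200 bp from an annotated start had folds of 3.88 and 3.603 in experiments 2 and 3. The strongest Psmb8 peak, with a fold of 5.70 and a pileup of 18, was in experiment 3 alone.

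Psmb9, which takes the place of Psmb6, shares its promoter with Tap1, a subunit of the transporter that carries peptides into the endoplasmic reticulum. Their starts point away from each other and lie 226 bp apart. The region over both starts, chr17:34186946-34187606, had folds of 3.24 and 3.52 and pileups of 15 and 21 in experiments 1 and 3, and no peak in experiment 2. The deposited annotation gave its experiment 1 peak to Psmb9 and its experiment 3 peak to Tap1. A neighbouring region inside Psmb9, chr17:34186440-34186840, had folds of 3.09 and 4.08 in experiments 2 and 3. The Psmb9 promoter was thus met in each experiment, but no single region was in all 3. In experiment 2 the peak had a pileup of 7, the lowest of that list, and a within-list rank of 0.677. The leading region of Psmb9 was intergenic, at chr17:34171222-34171415, with higher folds of 6.62 and 5.77 in experiments 1 and 3.

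Psmb10, which takes the place of Psmb7, had a single region at chr8:105936944-105937297 with folds of 4.50, 3.59 and 3.84 and pileups of 19, 14 and 23. It was in all 3 lists but did not reach the start, since the summit lay 1270 bp downstream of it. The printed Psmb10 window overlapped no reproducible region and held 3 CpG dinucleotides, against a median of 19 over the members' windows. When only peaks with a −log10 q-value of at least 5 were kept, Psmb10 was the one immunoproteasome gene left with a reproducible promoter region.

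**Figure D3:**
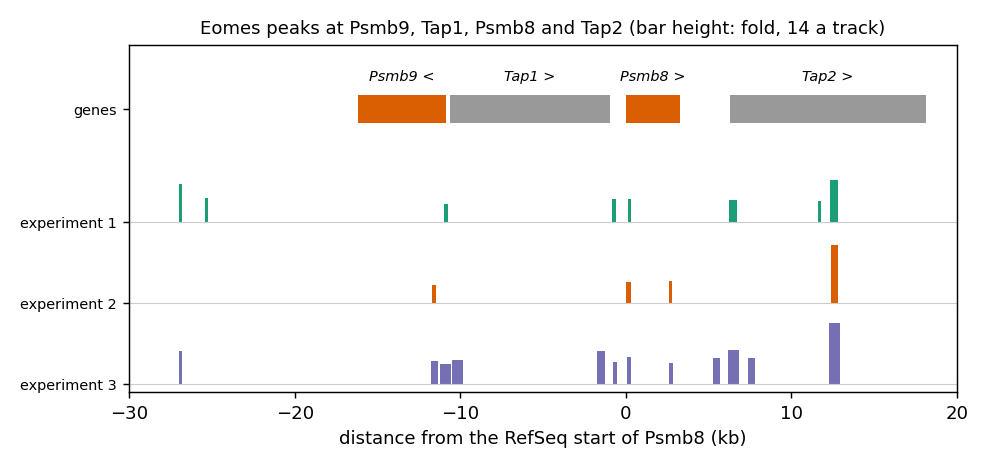
Peaks along the gene cluster of Psmb9, Tap1, Psmb8 and Tap2, by distance in kb from the RefSeq start of Psmb8, with 1 track per experiment and bar heights giving the authors' fold (each track spans 14). Experiments 1, 2 and 3 have 8, 4 and 12 peaks here, and the tallest bars in each track stand within Tap2.

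Next to these genes, Tap2, the other subunit of the peptide transporter, had the strongest region of the cluster. At chr17:34210468-34211152 its folds were 7.33, 10.05 and 10.63 and its pileups 46, 29 and 44. The region was classed as promoter at 2 to 3 kb, and each of its folds was above the highest Psmb8 and Psmb9 fold of the same experiment.

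Set against the other members that had a promoter peak, the immunoproteasome promoter peaks were on the low side in each experiment. In each list the strongest promoter peak of each gene was taken. Such a peak was called in 34, 28 and 36 of the 46 other members in experiments 1, 2 and 3. All 3 immunoproteasome genes had one each time. Members without a called promoter peak were left out, so these medians do not place the immunoproteasome genes among all members. The other members include the activators, the inhibitor, the assembly chaperones and Psma8, beside the constitutive subunits. The median fold in experiment 1 was 4.05 over the 3 immunoproteasome genes, against 4.52 over 34 other members with a promoter peak. In experiment 2 it was 3.59, against 5.21 over 28 genes. In experiment 3 it was 4.08, against 4.90 over 36 genes. The immunoproteasome median was the lower one in 3 of 3 experiments, and the mean difference was −0.973 ± 0.590 (SD, n = 3 experiments).

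The ranges of both sets overlapped in every list. Among the other members with a promoter peak, 10 of 34, 2 of 28 and 8 of 36 were below the immunoproteasome median in experiments 1, 2 and 3. Against Psmb5, Psmb6 and Psmb7 alone, the medians were 4.05 against 4.08, 3.59 against 7.82 and 4.08 against 4.25, with 2, 2 and 1 of these 3 counterparts having a promoter peak. That mean difference of −1.48 came down to −0.101 without experiment 2. An exact two-sided sign-flip test over 3 experiments cannot give a p below 0.25, so the difference was not tested.

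**Figure D4:**
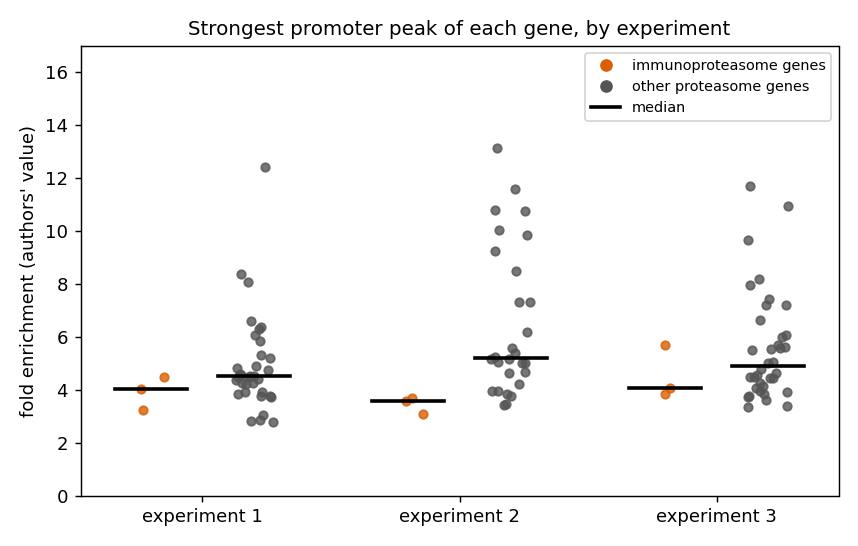
Authors' fold of the strongest promoter peak of each proteasome gene in each experiment, with immunoproteasome genes on the left, the other members on the right and a bar at the median. The immunoproteasome medians of 4.05, 3.59 and 4.08 lie below the medians of 4.52, 5.21 and 4.90 over the other members with a promoter peak. Points overlap in each experiment.

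The base of the cap holds a ring of 6 ATPases that unfold the substrate. Reproducible promoter regions were found in 5 of the 6 (83.3%, against 38.4% of all protein-coding genes). They were in all 3 lists for Psmc2, Psmc4 and Psmc6 (50%, against 29.8% with any region in all 3 lists). Psmc2 had folds of 6.30, 9.25 and 5.58 and pileups of 27, 21 and 29 at chr5:21784801-21785375. A second Psmc2 region at chr5:21786566-21787102, over another start of the gene, had folds of 4.30, 9.11 and 5.21. Experiment 2 had the highest fold in both regions.

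Psmc6 had folds of 4.49, 4.23 and 6.00, and Psmc4 had lower and even folds of 3.76, 3.94 and 3.96. Psmc1 had promoter regions in experiments 1 and 3, and its leading one, with its summit at −2573 bp from the start, had folds of 6.597 and 6.070. Psmc3 was among the weakest members, with folds of 2.78 and 3.33 in experiments 1 and 3. Psmc5 had a peak in experiment 3 alone, with a fold of 3.71.

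The non-ATPase subunits of the cap included the strongest members. Psmd7, a scaffold partner of the deubiquitinase Psmd14, had folds of 12.4, 11.6 and 11.7 and pileups of 34, 29 and 38 at chr8:107588057-107588597. The region covered the start, the 3 experiments differed little, and the mean of 11.9 ± 0.455 (SD, n = 3) was the highest of all members. Psmd4, a receptor for ubiquitin chains, had folds of 8.07, 10.77 and 10.95 and pileups of 29, 24 and 42 at chr3:95042380-95042858, which overlaps the printed window. Psmd12, a lid subunit, varied more, with folds of 4.28, 13.1 and 9.66 and pileups of 18, 33 and 34.

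Psmd6, another lid subunit, had its leading region outside the promoter. This region at chr14:14067805-14068276, of the intron class, lay 48297 bp from the nearest annotated start and had folds of 7.85, 6.99 and 6.40. It lay outside the RefSeq span of Psmd6, chr14:14112185-14120945, and is linked to the gene only by the deposited assignment. The promoter region of Psmd6 was in all 3 lists as well, with folds of 5.20, 7.32 and 4.80. Lid subunits Psmd3, Psmd8 and Psmd11 also had promoter regions in all 3 lists, with mean folds of 6.23 ± 1.70, 4.36 ± 0.605 and 5.42 ± 1.88 (SD, n = 3 each).

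None of the remaining cap genes was assigned a region found in all 3 lists. Psmd1, a large scaffold of the base, had a reproducible region in the intergenic class only, with folds of 5.60 and 2.56 in experiments 2 and 3, and a peak over its start in experiment 3 alone, with a fold of 5.52 and a pileup of 19. Psmd2, the other large scaffold, had a peak over its start in experiment 2 alone, with a fold of 5.17. Psmd14, the deubiquitinase of the lid, had a peak in experiment 1 alone, with a fold of 4.50. Among the chaperones that help the base assemble, Psmd9 had folds of 3.84 and 4.14 in experiments 2 and 3 and Psmd5 had folds of 4.54 and 3.603 in experiments 1 and 3. The Psmd5 region was classed as promoter but lay 15492 bp from the RefSeq start. Psmd10, the other chaperone of this kind, was named in no row of the lists used here.

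The lid subunit Psmd13 is a case in which the deposited annotation gave a shared promoter to the neighbour. Its own assigned peaks were in 1 list each. Its start, and the T-box match in its window, were nevertheless covered by a region found in all 3 lists, chr7:140881583-140882473, which the deposited annotation gave to Sirt3, a divergent gene whose start lies 85 bp away. A divergent neighbour starting within 1000 bp was found for 8 of the 49 proteasome genes (16.3%), against 8.72% of all genes with a known start. Psma2 is another such gene, and a peak near it in 1 list was assigned to its neighbour Mrpl32.

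Activators that open the core without the ATPase cap had reproducible promoter regions in 4 of 5 genes (80%, against 38.4% of all protein-coding genes). Psme1 and Psme2, which form the interferon-inducible activator ring, had folds of 3.83, 5.41 and 4.50 at Psme1 and of 5.26 and 4.08 at Psme2 in experiments 2 and 3. Psme3, the nuclear relative, had folds of 3.76, 5.17 and 7.21. Psme4, a large activator monomer, had folds of 6.39 and 6.63 in experiments 1 and 3. Psme2b, a relative of Psme2, had no row in the lists, and the sources used here do not say how reads that match both were placed. The inhibitor Psmf1 had even folds of 4.74, 4.69 and 5.04 at its start.

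Assembly chaperones of the core alpha ring had a promoter region in all 3 lists in 3 of 4 cases. Any region in all 3 lists was found at 29.8% of all protein-coding genes. Psmg1 had folds of 5.85, 10.8 and 8.19 and pileups of 25, 27 and 43 at chr16:95990795-95991212, which spans the whole printed Psmg1 window. Its partner Psmg2 had lower folds of 4.54, 4.25 and 5.64, the value of experiment 2 being that of the peak assigned to Cep76, and Psmg3 had folds of 6.07, 4.64 and 3.41. Psmg4, the partner of Psmg3, had peaks in experiment 3 alone, the stronger with a fold of 4.50. Psmg1 also carried an intronic region in all 3 lists, with folds of 4.59, 6.03 and 7.12.

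**Figure D5:**
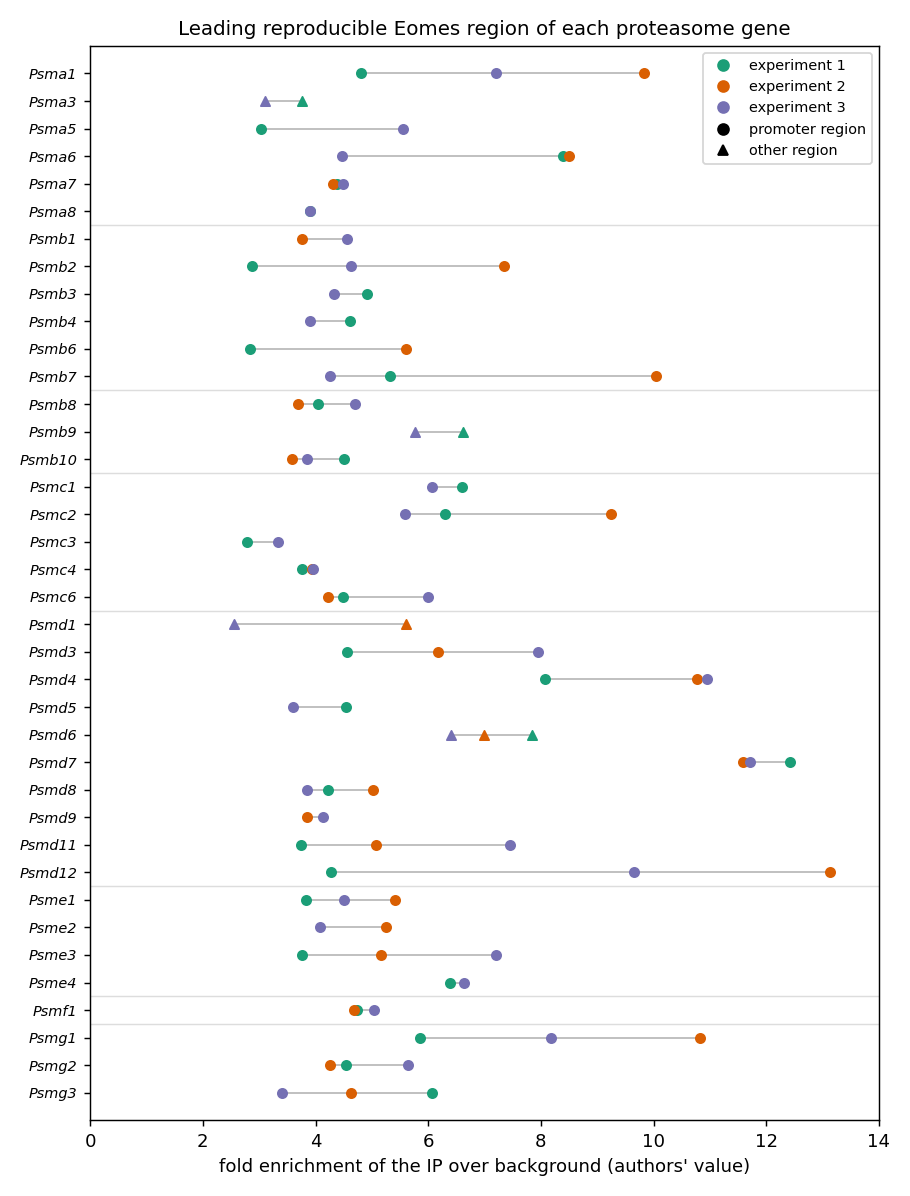
Authors' fold in each experiment at the leading reproducible region of the 38 proteasome genes that have one, grouped by role, with circles for promoter regions and triangles for other regions. Psmd7 stands at about 12 in all 3 experiments, Psmd12 spreads from 4.28 to 13.1, and the circles of Psmb8 and Psmb10 lie below 5.

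Genes that serve the proteasome, or the peptide transport next to it, but carry other names were counted from a list of their own, which includes Tap1 and Tap2. Of 14 such genes, 13 were in the gene table, and 12 of the 13 (92.3%) had a reproducible promoter region, against 38.4% of all protein-coding genes. The region counted for Tap1 is the one it shares with Psmb9. Ddi2, a protease that activates Nfe2l1, had no assigned peak. Counting regions whichever gene they were assigned to, all 13, Ddi2 included, had a reproducible region within 3000 bp of a RefSeq start. The share over all genes with a known start was 43.1%. Uchl5, a deubiquitinase of the cap, had folds of 11.1, 14.8 and 11.6, the highest mean of the list. Adrm1, the ubiquitin receptor that holds Uchl5, had folds of 7.004, 5.971 and 11.86. Nfe2l1, the transcription factor that raises proteasome genes when the proteasome is impaired, had folds of 4.81, 3.38 and 6.35.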

How the data were processed

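Chromatin immunoprecipitation of Eomes was followed by sequencing in 3 experiments, each with an input. The authors aligned reads to mm10 with Novoalign and annotated peaks with ChIPseeker, per the submitters' processing notes, without versions. The peak caller was not given in the sources used here. Per the file headers, each deposited row gave a pileup (a whole-number count), a fold enrichment (a ratio), a −log10 p-value and −log10 q-value, a signed distance to a start (handled as a score), a class and a nearest gene. Peaks had been called per experiment, not on pooled samples.

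From these, rows repeating an interval were collapsed, intervals overlapping by at least 1 bp were merged across lists, and regions in at least 2 of 3 lists were kept (Python 3.11.15, pandas 2.3.3, checked with bedtools 2.31.1). A region belongs to every gene that any of its peaks was assigned to. The leading region of a gene has the highest mean within-list rank of −log10 q, with a missing list as 0. RefSeq tables (GRCm38.p6, the same assembly as mm10) gave gene starts and promoter windows. Values in full were given for the immunoproteasome genes, their counterparts and the 3 highest-ranked members of each role group, and further members by group. The members and lists were chosen with earlier results of these data known. Merging was tested on simulated data. Alternatives covered replicates, q-value, overlap, assignment and promoter reach. Precision is limited by the unknown depth, and separate input values were not analysed here.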

Additional observations from a re-analysis of the deposited data

How the results depend on the processing

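Applying 11 alternative settings to 5 results, where each applied, gave 41 values. Of these, 34 stayed within 1.5 times of the reported count or within 1 SD of the reported difference. The other 7 include a percentile difference on another scale, which was not compared with the SD. Counts cannot change sign, and the difference was negative in each setting in which it was computed. With a −log10 q-value of at least 5, the counts were 18 proteasome genes with a reproducible region, 17 with a reproducible promoter region (34.7%, against 20.5% of all protein-coding genes), 10 with a region in every list (20.4%, against 14.2%) and 1 immunoproteasome gene, Psmb10, with a promoter region. Leaving out each experiment in turn gave 21 to 33 genes with a reproducible region and 21 to 32 with a promoter region. With 2 lists left, a region in every remaining list is the same thing as a reproducible region. Its counts of 21 to 33 therefore repeat the first ones and are not separate values among the 41. Immunoproteasome genes with a promoter region numbered 2 to 3. The lowest counts came without experiment 3. With a reproducible region these were 42.9% to 67.3% of the members, against 31% to 37.4% of all protein-coding genes. For promoter regions they were 42.9% to 65.3%, against 25.8% to 32.1%. The fold of the immunoproteasome genes minus that of the other members ranged from −1.22 to −0.648 in the same way. It was −1.48 against Psmb5, Psmb6 and Psmb7 alone. As a within-list percentile of −log10 q-value the difference was −23.7, on another scale and in the same direction. The cause of these shifts was not tested, except that a stricter q-value and fewer lists leave fewer peaks by construction. No paired analysis was possible because the deposited lists hold no input values apart from the IP values, so IP and input replicates of the same number could not be entered separately. Binding weaker than the lowest pileup of each list was not detectable, and replicates share no known depth.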

Other observations

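The members' promoter windows had a median GC content of 57.3%, against 56.3% over all protein-coding windows, and a median of 19 CpG dinucleotides, against 13. Of the 14 members with the ETS-type motif in a window, 12 had a reproducible Eomes promoter region, against 16 of the 27 members without it. Over all protein-coding genes the share with such a region was 38.4%. The same split by motif was not computed for all genes, so it is not known to be particular to the members. The difference was not tested. Reproducible regions of neighbours lay within 3000 bp of the starts of Psmb1 (assigned to Tbp) and Psmb3 (assigned to Pcgf2), each found in all 3 experiments, whereas the regions of Psmb1 and Psmb3 themselves were in 2.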
